A study of Mus musculus with 17 samples.

Results

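The sites of STAT6 on the chromatin of mouse macrophages were compared between cells given interleukin 4 (IL4) alone and cells given interferon gamma (IFNg) together with IL4. Both STAT6 peak lists of the study were used, on chromosomes 1 to 19, X and Y. No STAT6 peak overlapped any of the 128 peaks of the input library, so none was removed. The IL4 list held 24927 peaks and the IFNg+IL4 list held 21481, together 46408 of the 144384 peaks in all ChIP lists of the series. A peak was called shared when it overlapped a peak of the other list by at least 1 bp, and otherwise IL4-only or IFNg+IL4-only.

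The cells were macrophages grown from bone marrow of C57BL/6 mice in medium conditioned by L929 cells, a source of macrophage growth factor, and used on day 7 of differentiation. The labels call the cells wild type (wt) for the libraries of the other factors and give no genotype for the STAT6 and input libraries. One culture group received IL4 at 10 ng/ml and the other IFNg at 100 ng/ml with IL4 at 10 ng/ml, both for 2 h, and chromatin was precipitated with an antibody to STAT6. No STAT6 library of untreated cells or of cells given IFNg alone was analysed here, so a shared peak is not shown to depend on IL4. Each group was 1 library, and the labels do not say how many mice gave the cells. No test between the conditions was therefore possible, and every difference below describes these 2 libraries. The depths of the libraries, recovered from the steps of the peak values, were 1.13 and 1.08 times that of the input for IL4 and IFNg+IL4. Intervals in parentheses are exact Clopper-Pearson 95% intervals for counting error only, and they treat neighbouring peaks as independent.

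STAT6 is a latent cytoplasmic transcription factor. Binding of IL4 to its receptor activates JAK kinases, which phosphorylate STAT6, and the factor then forms dimers that enter the nucleus and bind palindromic DNA elements. In macrophages it drives alternative activation, whereas IFNg acts in part through interferon regulatory factors to drive classical activation.

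Binding lists hold no expression values, so the identity of the cells could be checked only by the position of peaks. Of 25 genes of macrophage identity, 24 lay within 20 kb of an IL4 peak and 25 within 20 kb of an IFNg+IL4 peak, against 49.8% and 46.0% of all 21887 protein-coding genes. Of 24 markers of other cell types, 8 lay near a peak of each list. The T cell genes Cd3d, Cd3e and Cd8a, the B cell gene Pax5 and the neutrophil genes Ly6g, Mpo and S100a8 had no peak in either list. Other markers of the same cells had peaks: the B cell gene Ms4a1 had 5 IL4 and 4 IFNg+IL4 peaks with 4 shared, and Cd79a had 2 in each list, all shared. The neutrophil gene Elane had 2 in each list, all shared, and Camp 1 with IFNg+IL4 alone. Peaks near Cd4, a T cell co-receptor gene, were in the IL4 list alone.

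Promoter sequences under the strongest promoter summits of each class are shown first, so that the short motifs counted below can be seen. Each is at most 60 bases to either side of the summit, on the strand of the gene, ends at or before its start site, and is taken from RefSeq on GRCm38.p6. Capitals mark a match, on either strand, to 1 of 4 motifs. The STAT6 motif was TTC and GAA with 4 bases of any kind between them, and the interferon element was GAAA and GAAA with 2 between them. The other motifs were TGANTCA (AP-1) and TTGCNNAA (C/EBP), which did not occur in the windows printed. Matches of different motifs may overlap, and a match is a description of letters, not proof of a binding site.

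The 4 shared promoter summits with the highest values in the IL4 list were at Pdcd1lg2 (chr19:29410796-29410916), Tfec (chr6:16898608-16898691), Irf2 (chr8:46739495-46739594) and Tnip3 (chr6:65590288-65590397), at ranks 112, 126, 185 and 239 of that list. Pdcd1lg2 encodes the checkpoint ligand PD-L2, Tfec a macrophage factor of the MITF family, Irf2 an interferon regulatory factor and Tnip3 an inhibitor of NF-kappa B. The Pdcd1lg2 and Tfec windows hold the STAT6 motif, Irf2 holds an interferon element, and Tnip3 holds none of these letters in this window.
Pdcd1lg2: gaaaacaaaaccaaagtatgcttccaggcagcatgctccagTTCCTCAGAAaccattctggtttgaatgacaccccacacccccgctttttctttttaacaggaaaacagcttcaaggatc
Tfec: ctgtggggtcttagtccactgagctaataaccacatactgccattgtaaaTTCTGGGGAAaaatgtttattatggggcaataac
Irf2: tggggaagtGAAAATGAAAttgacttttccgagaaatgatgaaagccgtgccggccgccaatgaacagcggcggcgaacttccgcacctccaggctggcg
Tnip3: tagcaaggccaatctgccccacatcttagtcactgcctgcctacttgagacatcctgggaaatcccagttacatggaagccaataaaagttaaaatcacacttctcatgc

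The 4 strongest IL4-only promoter summits were at Palb2 (chr7:122132958-122133078), Rbm47 (chr5:66151957-66152077), Igtp (chr11:58199386-58199506) and Laptm5 (chr4:130913240-130913315), at ranks 8763 to 9843 of 24927. Palb2 encodes a partner of BRCA2 in DNA repair, Rbm47 an RNA-binding protein, Igtp an interferon-induced GTPase and Laptm5 a lysosomal membrane protein of blood cells. None of the 4 motifs was found in the 4 windows printed here.
Palb2: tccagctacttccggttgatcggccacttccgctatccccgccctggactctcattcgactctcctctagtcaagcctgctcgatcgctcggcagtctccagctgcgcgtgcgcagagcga
Rbm47: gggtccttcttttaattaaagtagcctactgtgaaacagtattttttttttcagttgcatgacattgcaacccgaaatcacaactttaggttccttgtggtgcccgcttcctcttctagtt
Igtp: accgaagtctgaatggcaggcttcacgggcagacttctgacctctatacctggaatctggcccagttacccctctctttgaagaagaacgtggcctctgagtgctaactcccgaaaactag
Laptm5: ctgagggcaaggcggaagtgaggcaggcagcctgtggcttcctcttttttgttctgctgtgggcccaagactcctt

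The 4 strongest IFNg+IL4-only promoter summits were at Ifi205 (chr1:174031938-174032005), Cxcl10 (chr5:92349043-92349139), Calhm6 (chr10:34127973-34128042) and Acod1 (chr14:103046864-103046984), at ranks 3408 to 6121 of 21481. Ifi205 belongs to an interferon-inducible gene family, Cxcl10 encodes a chemokine that attracts activated T cells, Calhm6 a channel-family protein, and Acod1 the enzyme that makes itaconate. The Cxcl10 and Calhm6 windows hold an interferon element and the Ifi205 window the STAT6 motif. Peaks of IRF1, an interferon-induced factor mapped in the same study, after 4 h of IFNg+IL4 overlapped all 4 of these peaks, all 4 shared peaks shown above and, of the 4 IL4-only peaks, that of Igtp.
Ifi205: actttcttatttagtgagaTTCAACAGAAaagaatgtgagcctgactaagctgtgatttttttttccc
Cxcl10: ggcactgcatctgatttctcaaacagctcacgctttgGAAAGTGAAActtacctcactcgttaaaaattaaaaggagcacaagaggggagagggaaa
Calhm6: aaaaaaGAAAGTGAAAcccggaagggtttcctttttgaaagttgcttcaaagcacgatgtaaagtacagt
Acod1: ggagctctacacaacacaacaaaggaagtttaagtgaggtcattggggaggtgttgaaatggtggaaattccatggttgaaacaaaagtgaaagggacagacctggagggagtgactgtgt

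Over all promoter windows, which ran from 250 bases before to 50 bases after a start, the STAT6 motif was found in 206 of 1421 windows with a shared summit, 14.5% (12.7 to 16.4%). It was found in 43 of 737 windows with an IL4-only summit, 5.83% (4.25 to 7.78%), and in 23 of 342 with an IFNg+IL4-only summit, 6.73% (4.31 to 9.92%). Windows with no STAT6 summit held it in 5.74% of 18604 cases, and all 21238 windows in 6.34%. Strength within a list moved with this share. Deciles are 10 groups of equal size by the authors' −log10 p. In the strongest 3 deciles, 90 of 197 shared windows held the STAT6 motif, 45.7% (38.6 to 52.9%), against 12.2% in deciles 4 to 7 and 6.04% in the weakest 3 deciles. No IL4-only promoter summit was in the strongest 3 deciles. In deciles 4 to 7 the share for IL4-only windows was 9.20% (5.24 to 14.7%) and in the weakest 3 it was 4.87% (3.26 to 6.96%), so the intervals of IL4-only and shared windows overlapped at like strength. In the IFNg+IL4 list the shares in deciles 4 to 7 were 12.04% for shared and 10.4% for IFNg+IL4-only windows (4.59 to 19.4%), and in the weakest 3 deciles 7.83% and 5.00% (2.69 to 8.40%).

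The interferon element gave another order. It was found in 27 of 342 windows with an IFNg+IL4-only summit, 7.89% (5.27 to 11.3%), in 89 of 1421 shared windows, 6.26% (5.06 to 7.65%), and in 18 of 737 IL4-only windows, 2.44% (1.45 to 3.83%). All windows held it in 3.34% of cases. In deciles 4 to 7 of the IFNg+IL4 list the share was 14 of 77 for IFNg+IL4-only summits, 18.2% (10.3 to 28.6%), and 5.14% of 623 for shared summits (3.54 to 7.17%). In the weakest 3 deciles, which held 260 of the IFNg+IL4-only windows, it was 3.46% for these (1.59 to 6.47%) and 4.24% for shared summits (2.79 to 6.15%), so the difference was not seen there. In the IL4 list the shares for IL4-only and shared windows were 5.52% (2.56 to 10.2%) and 5.74% in deciles 4 to 7, and 1.57% (0.718 to 2.95%) and 4.76% (3.13 to 6.90%) in the weakest 3. TGANTCA was found in 5.98%, 7.33% and 7.89% of shared, IL4-only and IFNg+IL4-only windows, beside 6.99% of all windows. For TTGCNNAA the shares were 8.52%, 8.14% and 9.06%, beside 10.2%. The median GC content was 59.7%, 60.7% and 59.0% in the 3 classes and 55.7% in windows with no STAT6 summit.

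**Figure D1:**
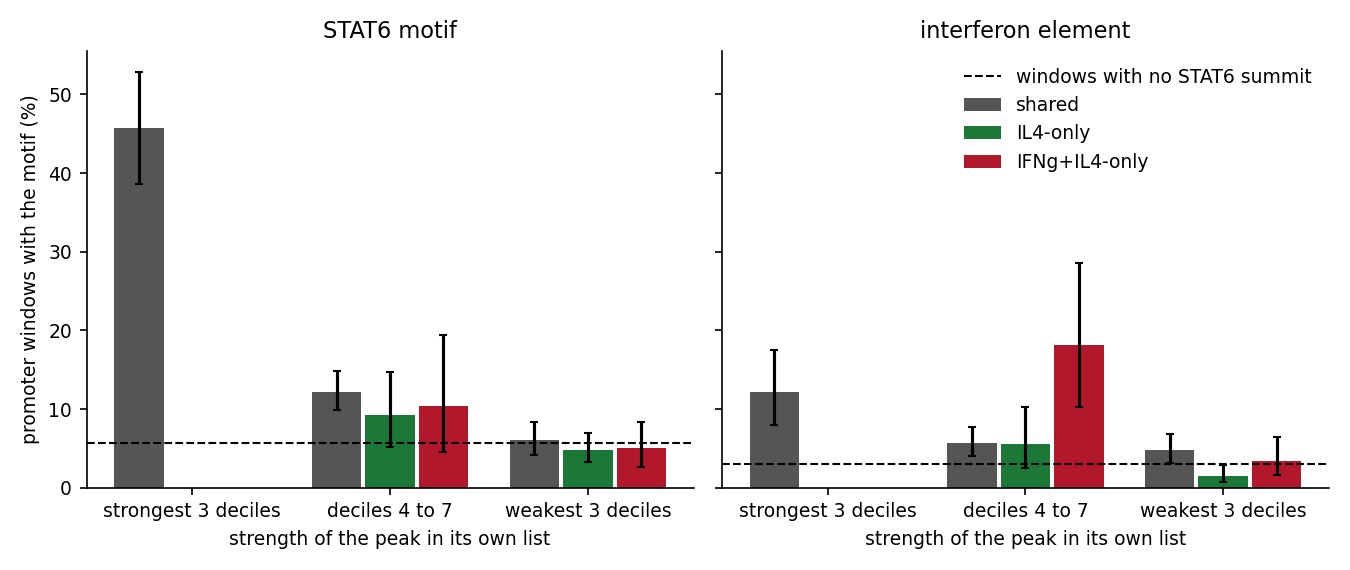
Share of promoter windows holding the STAT6 motif (left) or the interferon element (right), in percent, by class of STAT6 summit and by strength of the peak within its own list; shared summits are graded in the IL4 list, bars carry exact 95% intervals, the dashed line marks windows with no STAT6 summit, and bars over fewer than 20 windows are not drawn. The left panel falls from 45.7% to 6.04% for shared summits, and the IFNg+IL4-only bar stands at 18.2% in the middle deciles on the right.

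Of the 24927 IL4 peaks, 17135 or 68.7% (68.2 to 69.3%) were shared and 7792 or 31.3% were IL4-only. Of the 21481 IFNg+IL4 peaks, 17245 or 80.3% (79.7 to 80.8%) were shared and 4236 or 19.7% were IFNg+IL4-only. With the same number of strongest peaks from each list the shared percentages were 74.4% (73.8 to 75.01%) and 75.1% (74.5 to 75.7%), so the difference between the lists was nearly gone. Merged into sites, the lists gave 28992 sites, of which 58.5% were shared, 26.9% IL4-only and 14.6% IFNg+IL4-only. The summits of overlapping peaks lay close together, with a median distance of 20 bp and 81.6% within 50 bp. Across the shared pairs the order of the deposited −log10 p was alike in both lists (Spearman rho = 0.76, across peaks that share a caller and an input).

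Peaks of a single list were narrow and weak. The median width was 316 bp for shared peaks in the IL4 list and 181 bp for both IL4-only and IFNg+IL4-only peaks. The median of the authors' −log10 q was 24.4 for shared and 7.74 for IL4-only peaks within the IL4 list, and 17.0 for shared and 7.32 for IFNg+IL4-only peaks within the IFNg+IL4 list. No IL4-only peak was in the strongest decile of the IL4 list, where the best of them had rank 2672, while 11 IFNg+IL4-only peaks were in the strongest decile of their list, the best at rank 395. The weakest peak of the IL4 list had a −log10 q of 2.02 and that of the IFNg+IL4 list 2.03, so a site just under such a value in 1 library counts as absent from it.

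The genes nearest to the strongest IL4-only peaks had no single theme. The first was at chr1:86186348-86186844 in Armc9, a gene of the ciliary base, with a −log10 q of 101.7. The second was at chr13:52791473-52791879, 43.5 kb from Auh, an enzyme of leucine breakdown. Others lay in the homeobox gene Cux1 and in Pan3 of the mRNA deadenylation complex, 6.23 kb from the lysozyme gene Lyz1 and 3.66 kb from Fam107b. Beyond 20 kb from their nearest gene were those at Rusf1 (23.2 kb), Fam50b (41.7 kb) and the calcium pump gene Atp2b1 (120.8 kb). None of the 9 peaks named here overlapped a peak of another factor of the study.

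The strongest IFNg+IL4-only peak was at chr9:15015201-15015904 in Panx1, which encodes a channel that releases ATP, with a −log10 q of 246.3. The second was at chr2:5625945-5626488 in Camk1d, a calcium-dependent kinase gene. Cytokine receptor genes were among the next. A peak at chr9:45287410-45288348 lay 18.9 kb outside Il10ra, a receptor gene for interleukin 10, and another at chr6:67443473-67443858 lay in Il23r, a chain of the interleukin 23 receptor. Both overlapped IRF1 and JUNB peaks, as did that in Slc44a3, a gene of the choline transporter-like family. Others lay in Krba1 and Ms4a20. The nearest genes of the remaining peaks were Chd7, which encodes a chromatin remodeller, at 38.5 kb, 4932414N04Rik at 47.7 kb and Fggy at 75.1 kb. Of the 10 peaks, 8 overlapped a peak of another factor.

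The strongest shared peaks had similar ranks in both lists. The first of each list lay in Gm33049, a predicted gene, with a −log10 q of 414.7 in the IL4 list and 426.5 in the IFNg+IL4 list. Next to the known IL4 target Cish, other strong shared sites lay near Tarm1, an activating receptor gene of myeloid cells, Il1rl2, the receptor of interleukin 36, the zinc transporter gene Slc30a4 and the chemokine gene Ccl1. At Ccl1 the peak at chr11:82171511-82172326 had rank 10 of the IL4 list and its partner rank 5 of the other list. The remaining nearest genes among the first 10 of the IL4 list were Tnk2, a kinase gene, Lipk, a lipase gene, Gpr65, a proton-sensing receptor gene 35.2 kb away, and Ppp2r3a, a phosphatase subunit gene. In the IFNg+IL4 list 7 of the first 10 genes were the same, and Spcs3, Aopep and Zc3h12a stood in place of Tnk2, Gpr65 and Ppp2r3a.

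Position relative to genes differed little between the classes. The nearest protein-coding gene had a start site in the reference table for 19797 IL4 and 17132 IFNg+IL4 peaks. Among these, 15.8% of shared (15.2 to 16.4%), 18.7% of IL4-only (17.7 to 19.6%) and 17.1% of IFNg+IL4-only peaks (15.9 to 18.4%) lay within 1 kb of a start. The median distance to a start was 18.2, 16.3 and 17.4 kb. More than 10 kb from a start lay 61.7%, 58.8% and 61.5% of the peaks, and 53.5%, 56.4% and 54.8% lay inside a gene.

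Strength and position were tied to each other. Promoter peaks of the IL4 list had a median −log10 q of 8.94, and peaks more than 10 kb from a start 17.8. Taken as a whole, promoter peaks of that list were shared less often, 65.3% (63.6 to 66.9%) against 70.0% (69.1 to 70.8%) for distal peaks. Within a decile of like strength the order was the opposite. In the sixth decile 268 of 335 promoter peaks were shared, 80.0% (75.3 to 84.2%), against 722 of 1183 distal peaks, 61.03% (58.2 to 63.8%). In the same decile of the IFNg+IL4 list the shares were 88.9% (84.6 to 92.3%) and 77.6% (74.97 to 80.1%).

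**Figure D2:**
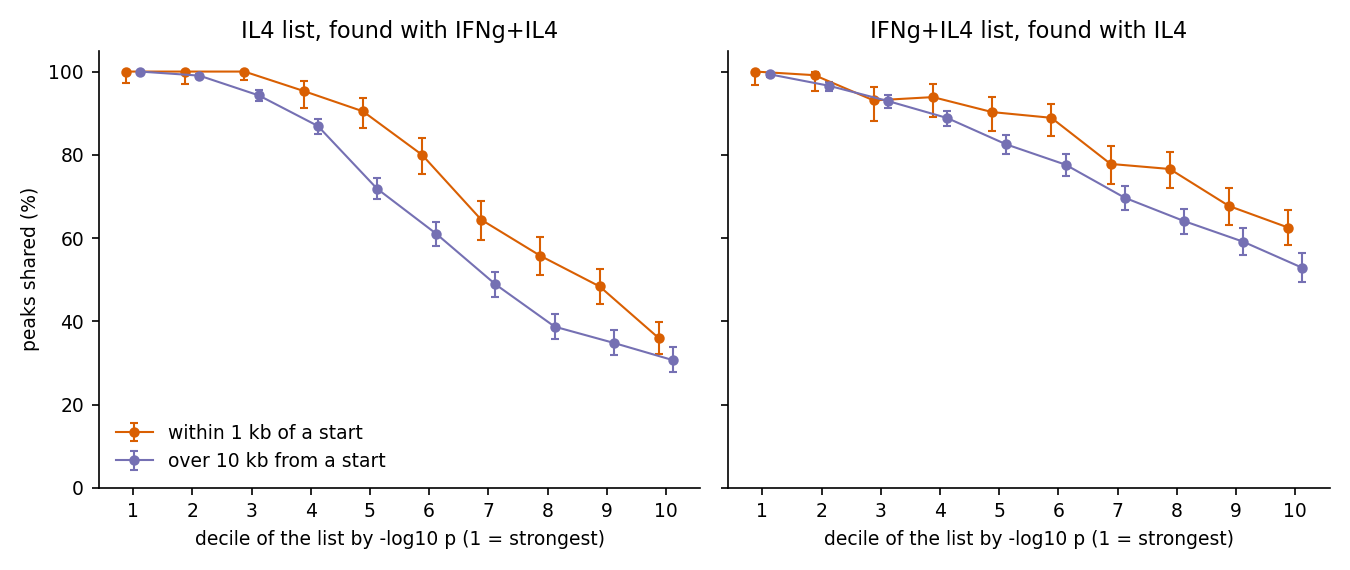
Percent of STAT6 peaks shared with the other list, by decile of the list from the strongest (1) to the weakest (10) by −log10 p, for peaks within 1 kb of a start and more than 10 kb from any start, with exact 95% intervals. In both lists nearly every peak of the first decile was shared, and in the sixth decile of the IL4 list the promoter point stands at 80.0% and the distal point at 61.03%.

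By chromosome, the share of IL4 peaks found with IFNg+IL4 lay between 65.9% and 71.2% on the autosomes. It was lower on chromosome X, 358 of 588 peaks or 60.9% (56.8 to 64.9%), where the median rank of the IL4 peaks was 14108 and so weaker than on any autosome. The part of strength in this lower share was not tested. Chromosome Y held 5 IL4 peaks.

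Sites of 1 list were less clustered than shared ones. The nearest shared summit lay at a median of 7.70 kb from a shared summit, 12.2 kb from an IL4-only summit and 12.7 kb from an IFNg+IL4-only summit. When sites up to 12.5 kb apart were joined, 53.1% of the 8705 sites that stood alone were shared, and 65.6% of the 1927 sites in the 155 groups of 10 or more. The largest group had 26 sites over 96.1 kb at Il4ra and Il21r, the receptor chains of interleukins 4 and 21, of which 14 were shared, 7 IL4-only and 5 IFNg+IL4-only. A group of 18 covered Csf1r, the receptor of macrophage colony-stimulating factor, with Pdgfrb and Hmgxb3 (11 shared, 6 IL4-only and 1 IFNg+IL4-only), and another of 18 covered Dock10, an activator of small GTPases (13, 3 and 2).

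Among single genes, Csf1 had peaks within 20 kb in the IFNg+IL4 list alone and Ifngr1 in the IL4 list alone. Csf1 encodes macrophage colony-stimulating factor, on which macrophages depend for survival. It had no IL4 peak and 5 IFNg+IL4-only peaks within 20 kb, and 3.61% of all genes had peaks in the IFNg+IL4 list alone. The strongest, at chr3:107760146-107760623, had its summit 0.171 kb downstream of the start, with a −log10 q of 20.7 (rank 7985). It overlapped an IRF1 peak and a MYC peak of cells given IL4 alone. The other 4 lay 6.74, 10.7, 12.5 and 17.7 kb upstream, with −log10 q values of 3.18, 8.18, 5.99 and 3.94. These 4 had ranks of 15108 to 21008 among the 21481 peaks and were thus among the weaker ones of their list. The absence of IL4 peaks depends on the window. Sites joined up to 12.5 kb apart formed a group of 8 at Csf1, 7 IFNg+IL4-only and 1 IL4-only, which reached beyond 20 kb.

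Ifngr1 encodes the ligand-binding chain of the IFNg receptor. It had 5 IL4-only peaks and no IFNg+IL4 peak, and 7.34% of all genes had peaks in the IL4 list alone. The strongest, at chr10:19587726-19587967, lay 4.07 kb upstream of the start with a −log10 q of 31.7 (rank 7208). One 7.66 kb upstream had 16.3, and a pair at the start, 0.132 kb before it and 0.072 kb past it, had 3.54 and 11.2. The fifth lay 19.4 kb beyond the end of the gene with 4.90. The second chain of the receptor, Ifngr2, had 5 IL4 peaks, of which 3 were shared.

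Tyk2 encodes a JAK kinase used by interferon and interleukin receptors. It had 1 shared peak, 5.42 kb inside the gene, and 5 IFNg+IL4-only peaks. The strongest of these, at chr9:21135626-21135927, lay 4.44 kb upstream with a −log10 q of 22.9, and the others had values of 5.58 to 9.55. None of them had a partner in the IL4 list.

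At Cxcl10 the IL4 list held 3 peaks, all shared, with −log10 q values of 3.82, 9.90 and 19.5, and the nearest of them lay 14.1 kb outside the gene. The IFNg+IL4 list held 8, of which 6 were IFNg+IL4-only. Their values were 43.8 at the promoter shown above, 88.6 at 4.81 kb upstream, 25.8 at 2.78 kb downstream of the start, and 4.87, 6.49 and 14.7 at the other sites. These peaks also made up part of the 8 IFNg+IL4-only peaks counted for the overlapping gene Art3, a relative of ADP-ribosyltransferases.

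**Figure D3:**
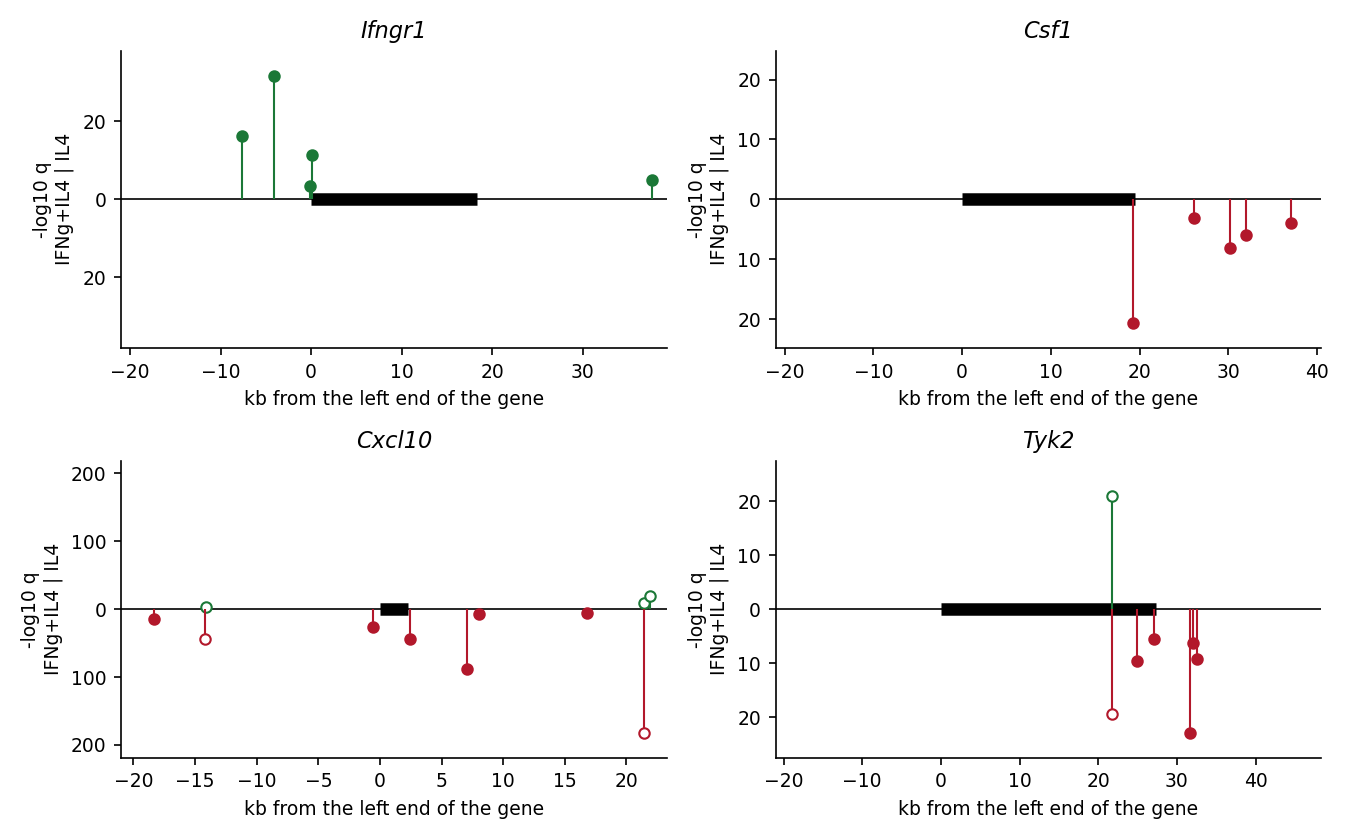
STAT6 peaks within 20 kb of Ifngr1, Csf1, Cxcl10 and Tyk2, plotted by kb from the left end of the gene (black bar) against the authors' −log10 q, upwards for the IL4 list (green) and downwards for the IFNg+IL4 list (red). Open circles are shared peaks and filled circles are found in 1 list; Ifngr1 has 5 green points only and Csf1 5 red points only, and heights are not comparable between the lists.

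Other genes with IL4 peaks alone included Shcbp1l, a gene expressed in testis, with 6, and Acp5, the tartrate-resistant acid phosphatase of osteoclasts and macrophages, with 5. The 5 at Acp5 had ranks of 15135 to 24480 among the 24927 IL4 peaks and were thus among the weaker ones. Those at Shcbp1l had ranks of 6256 to 23994. Elof1, a transcription elongation factor gene next to Acp5, had 4 and shares peaks with it. Fam107b, Gm4832, the Golgi protein gene Golgb1 and the histone gene H2ac4 had 4 each. Genes with 3 peaks in the IFNg+IL4 list alone were Mmp25, a membrane-bound metalloproteinase gene, its neighbour Bicdl2, the neighbours Fbxo44 and Fbxo6, which encode ubiquitin ligase subunits, and Coa5, Grina and Hars2.

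Long genes held the most sites. IL4-only peaks were most numerous at Asap1, an ARF-directed GTPase activator (13 of 34 IL4 peaks), and at Sh3kbp1, an endocytic adaptor gene on chromosome X (11 of 16). Vps13d, the histone deacetylase gene Hdac9, Nsmce2 and Snx29 had 10 each, and the phosphodiesterase gene Pde4d and the recombination gene Rad51b 9 each. These gene spans ran from 227 kb (Nsmce2) to 1302 kb (Pde4d). At Sh3kbp1 the strongest IL4-only peak had rank 6302.

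IFNg+IL4-only peaks were most numerous at Lpp, a focal adhesion protein gene of 599 kb (9 of 31 IFNg+IL4 peaks). Pla2g4a, the cytosolic phospholipase that releases arachidonic acid, had 8 of 15 in a span of 132 kb, while all 8 of its IL4 peaks were shared. The 8 additional peaks had −log10 q values between 4.30 and 27.5, and 1 of them lay 0.114 kb inside the gene start. Tmigd3 had 8 of 14, and the ETS factor gene Etv6, Med12l and Retreg1 had 7 each. St8sia1, a ganglioside synthase gene, also had 7 of 14. Of these 7, 5 lay close together inside the gene, 44.0 to 50.0 kb from its left end. Its shared peaks of rank 19 and 76 in that list lay elsewhere, 136.1 kb from that end and 16.6 kb outside the gene.

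Shared peaks were most numerous at Lpp (22 of 26 IL4 peaks), Asap1 (21 of 34) and Dock10 (21 of 24). Creb5, a gene of the CREB family, and Dab2, an endocytic adaptor gene, had 20 each. Med12l had 18, and Tbxas1, thromboxane synthase, and Gnaq, a G protein subunit gene, had 17 each. Dab2 had no IFNg+IL4-only peak among its 19.

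Gene groups were compared by the share of their genes near a peak of 1 list, beside 28.6% of all protein-coding genes near an IL4-only peak and 17.5% near an IFNg+IL4-only peak. The groups were chosen with earlier results known and were not matched to all genes on length, so their shares describe them and are not tests. Leaving out the markers of other cell types and the other-organ genes, a larger share of genes lay near IL4-only peaks than over all genes in 11 of 12 groups. The exception was the interferon group. Near IFNg+IL4-only peaks the share was above that of all genes in all 12, from 23.3% for lipid and cholesterol metabolism to 63.3% for cytokine signalling, and it was higher than in the interferon group for cytokine signalling, integrins (18 of 30) and the cytoskeleton (16 of 30).

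Of 30 interferon-stimulated effector genes, 14 or 46.7% lay near an IFNg+IL4-only peak and 7 or 23.3% near an IL4-only peak. Of the 66 IFNg+IL4 peaks near them 45 or 68.2% (55.6 to 79.1%) were shared, and of the 54 IL4 peaks 46 or 85.2% (72.9 to 93.4%). Over all peaks of the 2 lists the shares were 80.3% and 68.7%. Ifi204, a DNA sensor gene, had 2 IL4 peaks, both shared, and 5 with IFNg+IL4. Trim30a, a restriction factor gene, had 2 (1 shared) and 4 peaks, and Herc6, Trim21 and Cmpk2 had 2 IL4 peaks, all shared, and 4 with IFNg+IL4. Oasl2 of the oligoadenylate synthetase family, Ifi203 and Eif2ak2, the RNA-activated kinase PKR, had 1 peak each with IFNg+IL4 and none with IL4. Samd9l was the reverse. Usp18, Rtp4 and Parp9 had 4 peaks in each list, all shared. Dtx3l had 5 IL4 and 4 IFNg+IL4 peaks with 4 shared, and Trim25 and Dhx58 had 4 in each list with 3 shared. No peak was found near Sp100, Ifi44, Oasl1 and Trim30d.

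Of 30 genes of cytokine signalling and feedback, 18 lay near an IL4-only and 19 near an IFNg+IL4-only peak. Socs3, an inhibitor of cytokine signalling, had 8 IL4 peaks, all shared, and 12 with IFNg+IL4. Il10ra had 11 and 12 peaks with 9 shared, and Il10rb, the second chain of that receptor, 8 and 11. The phosphatase gene Ptpn1, which acts on JAK kinases, had 9 in each list with 8 shared. Stat6 itself had 7 IL4 peaks, of which 3 were shared. Jak3 with 1 peak and the phosphatase gene Dusp5 with 2 were in the IFNg+IL4 list alone, as Ifngr1 was in the IL4 list alone. Il13ra1, a chain of the IL4 and IL13 receptor, had 2 IL4 peaks and 1 IFNg+IL4 peak that did not overlap.

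Among macrophage identity genes 20 of 25 lay near an IL4-only peak and 7 near an IFNg+IL4-only peak. The order was the same over all protein-coding genes, 28.6% against 17.5%. Of the 120 IFNg+IL4 peaks near macrophage identity genes 113 or 94.2% (88.4 to 97.6%) were shared, beside 80.3% of the whole list. Of the 158 IL4 peaks near them 112 or 70.9% (63.1 to 77.8%) were shared, beside 68.7%. Markers of other cell types gave similar shares, 94.1% of 17 IFNg+IL4 peaks (71.3 to 99.9%) and 69.6% of 23 IL4 peaks (47.1 to 86.8%). Csf1r had 15 IL4 peaks with 9 shared, Mertk, a receptor for dying cells, 14 with 9, and Tlr4, the endotoxin receptor, 13 with 10. Irf8, a lineage factor, had 9 with 3 shared and no IFNg+IL4-only peak. Cebpb was the only gene of this group found in 1 list, with a single IFNg+IL4 peak.

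The cytoskeleton group had 25 of 30 genes near an IL4-only and 16 near an IFNg+IL4-only peak. Dock10 had 24 peaks in each list, Fmnl2, a formin gene, 18 and 19 with 14 shared, and Elmo1, an engulfment adaptor gene, 16 and 11 with 11 shared. Pak1, a kinase downstream of Rac, had 2 peaks with IL4 alone. For integrins and adhesion the counts were 21 and 18 of 30. Itgav had 12 and 11 peaks with 9 shared, Cd44 10 and 10 with 8 shared, and the integrin gene Itgb3 11 IL4 peaks with 7 shared. Thbs1, thrombospondin, had 2 peaks with IFNg+IL4 alone.

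Among lysosome and endocytosis genes 17 and 13 of 30 lay near IL4-only and IFNg+IL4-only peaks. Mitf, a transcription factor of this gene class, had 16 and 15 peaks with 14 shared, Atp6v0d2, a proton pump subunit gene, 11 in each list with 7 shared, and Tfec 8 in each, all shared. In lipid and cholesterol metabolism the counts were 16 and 7 of 30. Abca1 and Abcg1, the cholesterol exporters, had 7 and 6 IL4 peaks, all shared, and 9 and 8 with IFNg+IL4, while the nuclear receptor gene Rxra had 6 IL4 peaks with 2 shared and the cyclooxygenase gene Ptgs1 8 with 5. Nr1h2 had 1 peak with IL4 alone.

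Chromatin regulators had 18 and 13 of 30 genes near IL4-only and IFNg+IL4-only peaks. Of their 150 IL4 peaks 96 or 64.0% (55.8 to 71.7%) were shared, beside 68.7% of all IL4 peaks. Hdac9 had 20 with 10 shared and the remodeller subunit gene Arid1a 12 with 9. Kdm5b was in the IL4 list alone and Crebbp in the IFNg+IL4 list alone, with 1 peak each. For Toll-like receptor and NF-kappa B signalling the counts were 18 and 10 of 30. Irak2, a kinase of the pathway, had 8 IL4 and 12 IFNg+IL4 peaks, Tnip3 9 in each list with 8 shared, and Nfkb1 9 IL4 peaks with 5 shared. Tlr3, the receptor for double-stranded RNA, had 3 peaks with IFNg+IL4 alone, and Traf3 with 2 and Relb with 1 were found with IL4 alone.

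Survival and cell cycle genes had 14 of 30 near each kind of peak. Cdk6 had 13 and 15 peaks with 12 shared, Cflar, a caspase 8 inhibitor gene, 10 and 11 with 8 shared, and Bcl2, the cell death inhibitor gene, 12 IL4 peaks with 6 shared and no IFNg+IL4-only peak. Ccnd1 and Cdkn2c had 1 peak each with IFNg+IL4 alone. For ion channels and purinergic receptors the counts were 25 and 14 of 30. Panx1 had 2 IL4 peaks, both shared, and 8 with IFNg+IL4. Clic4 and the ectonucleotidase gene Entpd1 had 13 IL4 peaks each with 9 shared, and P2ry12, an ADP receptor gene, 10 and 12. In TGF-beta, Wnt and Notch signalling they were 15 and 10 of 30. Tcf4 had 14 peaks in each list with 13 shared, the Notch coactivator gene Maml2 13 and 10 with 9 shared, and Maml3 12 IL4 peaks with 7 shared. Smad7, an inhibitor of TGF-beta signalling, had 2 peaks and Tgfbr1 1 peak with IL4 alone.

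**Figure D4:**
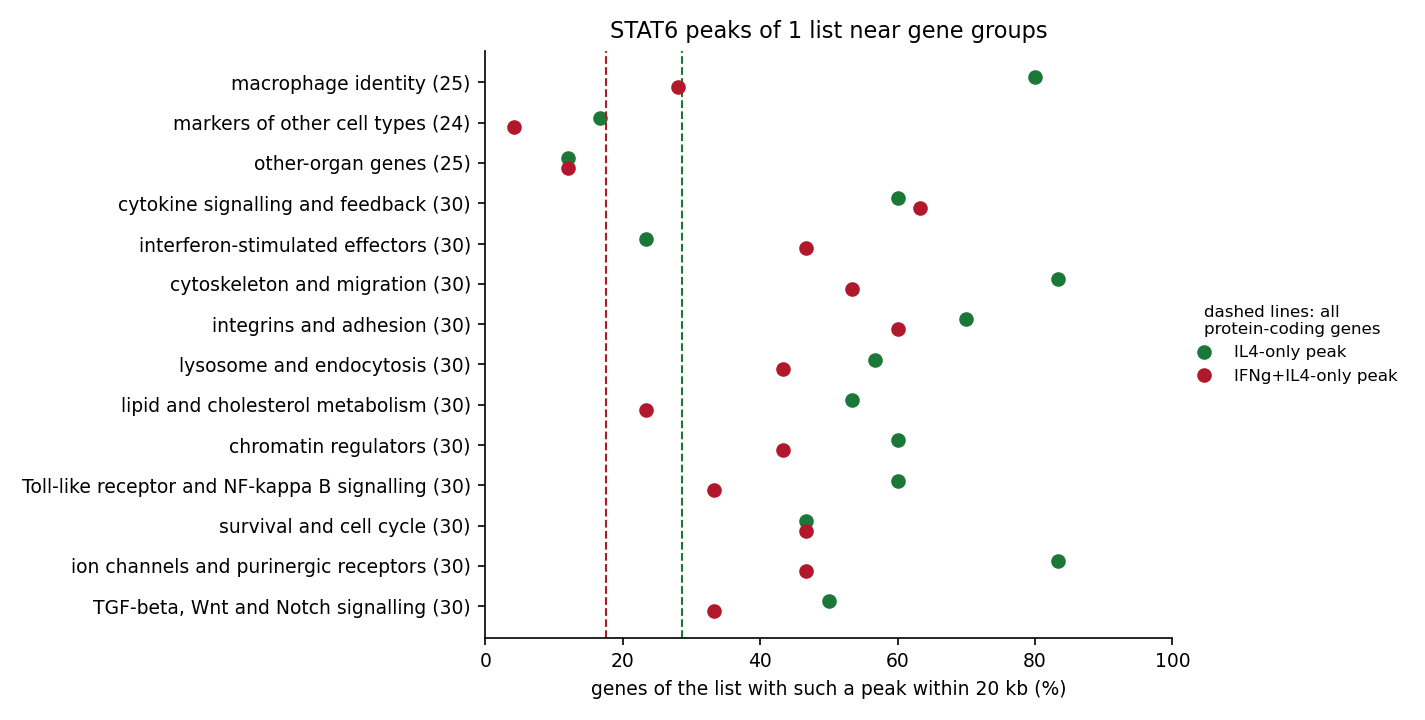
Percent of the genes of each group with an IL4-only (green) or IFNg+IL4-only (red) STAT6 peak within 20 kb of the gene, with the number of genes in parentheses; dashed lines give the same for all protein-coding genes, 28.6% and 17.5%. The interferon-stimulated effectors have 46.7% in red and 23.3% in green, and macrophage identity genes 28.0% in red and 80.0% in green.

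Peaks of the other mapped factors lay under the STAT6 classes to different extents. The study mapped IRF1, the AP-1 protein JUNB and the myeloid factor CEBPB without treatment and 4 h into IFNg or IFNg+IL4. It mapped MYC, a growth regulator, without treatment and at 2 and 4 h of IL4 or IFNg+IL4. At least 1 of these lists had a peak under 60.6% of shared (59.9 to 61.4%), 39.9% of IL4-only (38.8 to 41.0%) and 52.1% of IFNg+IL4-only peaks (50.5 to 53.6%). IRF1, JUNB and CEBPB had no list of cells given IL4 alone, while each had lists of cells given IFNg. The lower share of IL4-only peaks therefore cannot be told apart from the choice of conditions mapped.

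IRF1 peaks separated the classes most widely. They lay under 2205 of 17135 shared peaks, 12.9% (12.4 to 13.4%), under 200 of 7792 IL4-only peaks, 2.57% (2.23 to 2.94%), and under 1013 of 4236 IFNg+IL4-only peaks, 23.9% (22.6 to 25.2%). The order was the same among peaks of like strength. In the weakest 3 deciles of the IL4 list the share was 3.42% for IL4-only and 16.2% for shared peaks. In those of the IFNg+IL4 list it was 20.2% for IFNg+IL4-only and 7.54% for shared peaks. Under IRF1 after IFNg without IL4 lay 14.5% of IFNg+IL4-only and 1.00% of IL4-only peaks. None of the 137 IL4-only peaks in the strongest 3 deciles had an IRF1 peak, which allows a share of up to 2.66% (exact interval).

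JUNB peaks lay under 32.9% of shared, 13.2% of IL4-only and 19.8% of IFNg+IL4-only peaks. The JUNB lists differed by treatment: untreated JUNB peaks lay under 11.5% of IL4-only and 8.50% of IFNg+IL4-only peaks. JUNB peaks after IFNg lay under 5.92% and 15.4%, and those after IFNg+IL4 under 3.71% and 11.7%. CEBPB peaks lay under 34.3%, 18.7% and 24.0% of the 3 classes. Untreated CEBPB peaks lay under 7.08% of IL4-only and 3.99% of IFNg+IL4-only peaks, against 18.7% and 24.0% for CEBPB after IFNg. After IFNg+IL4 the 2 classes were closer for CEBPB, 6.83% and 7.86%. For MYC the 2 classes of a single list stood in the other order than for IRF1, with 26.4% of shared, 19.4% of IL4-only and 12.6% of IFNg+IL4-only peaks. The factor lists differ in length and depth, so shares are comparable between STAT6 classes within a factor list and not between lists.

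**Figure D5:**
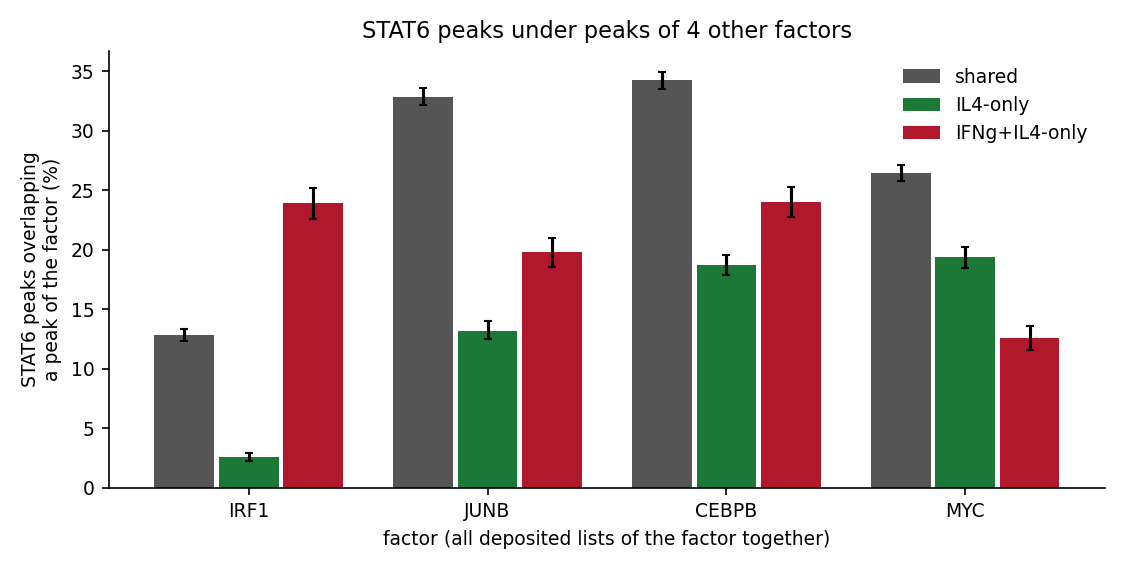
Percent of shared (graded in the IL4 list), IL4-only and IFNg+IL4-only STAT6 peaks that overlap a peak of IRF1, JUNB, CEBPB or MYC in any list of that factor, with exact 95% intervals. For IRF1 the bars stand at 12.9%, 2.57% and 23.9%, and for MYC at 26.4%, 19.4% and 12.6%. Only MYC had lists of cells given IL4 alone.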

How the data were processed

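Peak lists of STAT6 ChIP-seq after 2 h of IL4 or IFNg+IL4 were compared, 1 library each, grouped by the labels, with no pooling. Per the submitters' processing notes the build was mm10/GRCm38, Bowtie2 2.2.6 served for alignment and MACS2 2.1.0.20150731 for peaks, with settings not given in the sources used here. The deposited lists had 10 columns without a header. The deposited fold enrichment (a ratio), −log10 p, −log10 q and score, and the summit offset in bp, are the authors' values per peak against the input. The −log10 p ranked peaks within a list. Between the lists only orders and ranks were compared, and values of both lists printed side by side are not comparable in size.

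Depth relative to the input was recovered from the steps of the fold and −log10 p values, assuming linear scaling of 1 input. Python 3.11.15, pandas 2.3.3, numpy 2.4.6 and scipy 1.17.1 computed overlaps and exact Clopper-Pearson 95% intervals, and the overlap code was tested on simulated data. Gene spans, promoter windows and start sites came from RefSeq tables of GRCm38.p6, which gave a start for 17492 of 21887 protein-coding genes and none on chromosome 18. Distances used only peaks whose nearest gene had a start. A gene was near a peak whose summit lay within 20 kb of its span, and neighbouring genes can share peaks.

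Named genes were those nearest the 10 strongest peaks of each class, the 8 genes with most peaks of each class or of 1 list only, the 3 members with most peaks of each of the 14 gene lists, and members found in 1 list only. Other members named among the lists, Cxcl10 and Art3 included, were named after their values were seen. The members and lists were chosen with earlier results of these data known. Some genes and a motif among those examined are not reported here. Of 406 list genes 403 were in the reference. Read counts were not used here.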

Additional observations from a re-analysis of the deposited data

How the results depend on the processing

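No paired analysis was possible because each group was 1 library, and for the same reason no library could be left out. In every setting run the share of peaks shared was higher for the IFNg+IL4 list than for the IL4 list. Nearly equal numbers of peaks were shared in each list, so this order follows mostly from the IFNg+IL4 list being shorter. Most values moved beyond their counting interval, and the cause of these moves was not tested. The share of IL4 and of IFNg+IL4 peaks shared was 61.04% and 70.8% with a reciprocal overlap of 50%, and 65.2% and 75.6% with summits within 100 bp. With the same number of strongest peaks from each list it was 74.4% (73.8 to 75.01%) and 75.1% (74.5 to 75.7%), values that equal list lengths make alike in advance. At a −log10 q of at least 5 it was 67.5% and 80.7%.

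For shared, IL4-only and IFNg+IL4-only peaks the share at promoters was 12.6%, 15.0% and 13.5% within 500 bp, 19.9%, 23.1% and 21.6% within 2 kb, and 14.9%, 15.8% and 14.03% when −log10 q was 5 or more. In the strongest 30% of each list, a setting chosen after seeing the data, it was 7.21%, 0% (the interval reaches 3.298%) and 7.47%, so the higher value of IL4-only peaks did not hold there. The share overlapping another factor was 53.4%, 34.5% and 44.6% when summits had to lie within 100 bp, and 38.2% for IL4-only peaks at a −log10 q of at least 5. Shares measured from either end of the gene span and motif shares at a −log10 q of at least 5, both chosen after seeing the data, moved by less than their counting intervals. Windows of 5 and 50 kb kept the counts of list genes near a peak within 1.5 times. Motifs 100 bp to each side of all summits were not run, since sequence was at hand for promoter windows only. Depth limits which weak sites reach either list.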

Other observations

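Genes of microRNAs were not part of the comparisons above. Of 1005 hairpins in the RefSeq table, 177 had a STAT6 peak within 5 kb, 158 with IL4 and 128 with IFNg+IL4. Of the 177, 109 were in both lists, 49 in the IL4 list alone and 19 in the IFNg+IL4 list alone. Over all peaks, 31.3% of IL4 and 19.7% of IFNg+IL4 peaks were in 1 list alone. The same counts over all genes within 5 kb were not made, so nothing particular to microRNAs is shown. Mir511, which lies in the mannose receptor gene Mrc1, had 2 peaks in each list, all shared. Mir21a, which lies beside Vmp1, had 6 IL4 peaks with 5 shared and 4 IFNg+IL4 peaks with 2 shared. Mir22 had 4 IL4 peaks with 1 shared and 1 IFNg+IL4 peak. Mir223, a microRNA abundant in myeloid cells, had 1 shared peak in each list. Mir155, which is induced by inflammatory stimuli in macrophages, had no IL4 peak and 1 weak IFNg+IL4 peak, at rank 14919 of 21481. These hairpins were named after their values were seen. Several lie inside or beside protein-coding genes, so their peaks are also counted for those genes.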
